A study of Mus musculus with 36 samples.

Results

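The genes described here encode the nuclear subunits of the mitochondrial respiratory chain and of ATP synthase. They were chosen by name. A gene was taken when a probe set of the array platform carried a single symbol starting with Ndufa, Ndufb, Ndufc, Ndufs, Ndufv, Sdha, Sdhb, Sdhc, Sdhd, Uqcr, Cox4, Cox5, Cox6, Cox7, Cox8 or Atp5, pseudogenes and the assembly factors named Ndufaf and Sdhaf being left out. The rule found 107 probe sets for 82 genes, of 19938 genes with a single symbol on the platform: 36 of complex I, 4 of complex II, 8 of complex III, 17 of complex IV and 17 of complex V. For 17 genes with more than 1 probe set, the probe set brightest on average was used. A gene was tested when it lay above the median of the whole table, 4.623 on the log2 scale, on at least 4 arrays, and 78 of the 82 genes passed. The other 4, Cox7b2, Cox8b, Cox8c and Ndufa4l2, had means between 3.01 and 4.17 and lay above that median on 0 arrays. Ndufa4 was kept with complex I after its name, although its protein is today assigned to complex IV. The subunits encoded by mitochondrial DNA, and Cox7c, Ndufb4 and one probe set of Ndufs5 whose probe sets carry several symbols, were not analysed here.

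RNA from 9 groups of 4 arrays each was measured to ask how far fetal and adult macrophage precursors become alike once they have developed in the lung. The first 3 groups, called precursors below, were sorted before transfer from wild-type C57BL/6 donors that carried both CD45.1 and CD45.2: bone marrow (BM) monocytes of mice aged 6 to 12 weeks, fetal liver (FL) monocytes of stage E15.5 and yolk sac (YS) macrophages of stage E12.5. Part of the same 3 sorted populations, and alveolar macrophages (AMs) of adult donors, were given intranasally to newborn Csf2rb-/- mice, which lack the common beta chain of the GM-CSF receptor and so have no mature AMs of their own, and the donor-derived AMs were sorted 6 weeks later. AMs of mice aged 6 to 12 weeks and AMs of unmanipulated wild-type mice aged 6 weeks completed the set. Collagenase released the fetal cells, BM cells came from crushed bones and AMs from airway lavage, so precursors and AMs differed in preparation as well as in cell type. The RNA of the sorted cells was amplified before hybridisation. The labels call the 4 arrays of a group biological replicates and do not say whether each came from 1 animal or a pool, so p-values measure the spread between these arrays.

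The respiratory chain passes electrons from NADH, through complex I, or from succinate, through complex II, to ubiquinone. Complex III hands them on to cytochrome c, complex IV to oxygen, and the protons pumped on the way drive ATP synthesis by complex V. Each complex apart from complex II combines a core with many small accessory subunits, and several subunits of complex IV exist as paralogues with preferred tissues. AMs are known for lipid turnover and oxidative metabolism, and their development depends on GM-CSF and the receptor PPARgamma.

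The probe sets report bulk RNA, in which fewer cells of a type and less RNA per cell cannot be told apart. All values below are log2 array signals, on which a difference of 1 is a doubling, and levels of different genes are not compared, because probes differ in brightness. The AM markers matched the AM labels: all 10 measured were higher in the AMs. Their mean level lay between 10.8 and 11.1 in the AM groups and between 5.2 and 6.1 in the precursor groups. Chil3, one of them, also read 12.25 in BM monocytes. Monocyte markers averaged 11.3 to 12.0 on monocyte arrays, 5.7 to 6.1 on YS arrays and 4.7 to 5.4 on AM arrays. Against this, F13a1 read 11.20 in YS macrophages and S100a8 9.15 to 10.86 in the AM groups. Tissue macrophage markers averaged 10.6 to 10.7 on YS arrays and 5.2 to 6.7 elsewhere. Mrc1 and Dab2 also read 10.6 to 11.1 and 10.9 to 11.2 in the AM groups. Erythroid markers had array means of 6.44 to 7.18 in YS macrophages against 3.72 to 4.31 on all other arrays. The globin genes Hbb-y, Hba-x and Hbb-bh1 made this difference, with YS means of 10.44, 9.04 and 6.68. Klf1 and Alas2, at 3.76 and 4.14 in YS macrophages, were not raised there. Hepatocyte and endoderm markers averaged 5.73 to 6.42 on YS arrays against 4.99 to 5.60 elsewhere. Afp, Ttr, Apoa1, Apoa2 and Rbp4 were highest in YS macrophages. Alb, at 3.60, was not raised there, and Trf read 9.34 there against 10.80 to 11.17 in the AM groups. Neutrophil markers averaged 6.24 to 8.06 on the monocyte arrays against 3.88 to 4.41 elsewhere. The neutrophil average rested on granule genes. In BM and FL monocytes Elane read 9.20 and 10.52, Camp 11.0 and 9.47, Ngp 9.58 and 6.13, and Ltf 5.81 and 3.93. In the other groups Camp read 4.37 to 4.79, Ngp 3.44 to 3.95 and Ltf 3.18 to 3.39. Ly6g (3.10 and 3.19) and Retnlg (3.79 and 3.52) were dim in BM and FL monocytes. Cxcr2 read 4.44 and 8.33 in them, against 5.52 to 7.29 in the AM groups. Proliferation genes averaged 8.07 to 8.46 in BM monocytes, 9.10 to 9.63 in both fetal precursors and 7.07 to 7.85 in AMs. Lung epithelium markers averaged 5.38 to 6.20 on AM arrays against 4.41 to 4.84 on precursor arrays, with 4 of 7 higher and 1 lower in AMs and a median difference of 0.876. Cdh1 had the largest, at 3.02. Epcam had group means of 3.78 to 3.98 in precursors and 4.64 to 6.71 in AMs. Those of Scgb1a1 were 3.10 to 3.82 and 4.55 to 6.44. Krt8 went the other way, at 5.41 to 6.05 in precursors and 5.07 to 5.51 in AMs. The surfactant gene Sftpc differed by 0.88. The surfactant genes Sftpb and Sftpa1 did not follow Sftpc. Sftpb had group means of 4.88 to 5.22 in precursors and 4.95 to 5.08 in AMs, and those of Sftpa1 overlapped as well. The part of other cells, where present, and of proliferation in the differences below was not tested. Within groups, the array lowest for complex I was also the lowest for complex III and for complex IV in 9 of 9 groups, and for 50 cytosolic ribosomal protein genes in 9 of 9 groups. For complex V this held in 8 groups, for 77 mitochondrial ribosomal protein genes in 7 and for complex II in 3. The highest array was shared less widely, in 4 groups for complex II, 6 for complexes III and V and the cytosolic ribosomal genes, and 7 for complex IV. Of the 78 members, 63 correlated at 0.5 or more with the mean of the other members over arrays centred on their group, which share the array and its RNA amplification. Sdha, Ndufs1, Atp5a1 and Atp5b went the other way, with correlations of -0.641, -0.432, -0.371 and -0.241. Most members outside complex II thus varied together from array to array.

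**Figure D1:**
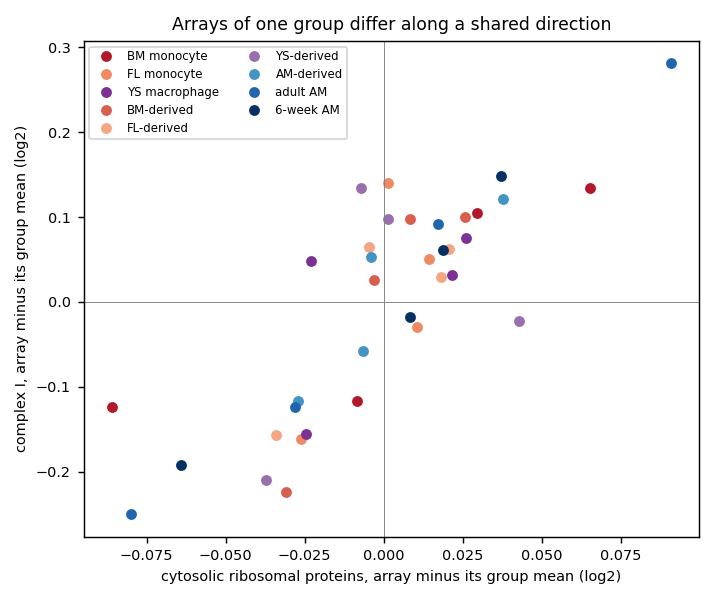
Each point is 1 of 36 arrays: the mean log2 signal of the complex I members (vertical) against that of 50 cytosolic ribosomal protein genes (horizontal), each minus the mean of the array's own group. The array lowest for complex I is also the lowest for the ribosomal genes in all 9 groups, and the highest array is shared in 6.

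Sequences just upstream of 5 genes are given because these genes carry the results: the paralogue pairs Cox6b1 and Cox6b2 and Cox7a2 and Cox7a1, each with 1 member that varied far more between groups than the other, and Sdha, which differed from the other subunits of its complex. RefSeq (GRCm38.p6) promoters were found for 67 of the 82 members. The 250 bases before each transcription start are printed 5′ to 3′ along the gene's strand: Cox6b1 at chr7:30626115-30626364 on the minus strand, Cox6b2 at chr7:4753095-4753344 on the minus strand, Cox7a2 at chr9:79759854-79760103 on the minus strand, Cox7a1 at chr7:30183921-30184170 on the plus strand and Sdha at chr13:74350241-74350490 on the minus strand. Capitals mark matches, on either strand, to one of 3 motifs: GCGCA, any base and GCGC for NRF1, CCGGAAG for ETS factors such as GABPA, and AGGTCA, any base and AGGTCA for nuclear receptors on a direct repeat.
Cox6b1: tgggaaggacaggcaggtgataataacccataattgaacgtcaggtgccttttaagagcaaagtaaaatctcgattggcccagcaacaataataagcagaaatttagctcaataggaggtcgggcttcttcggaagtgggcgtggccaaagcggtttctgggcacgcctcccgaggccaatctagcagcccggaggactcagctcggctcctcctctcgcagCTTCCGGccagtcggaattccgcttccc
Cox6b2: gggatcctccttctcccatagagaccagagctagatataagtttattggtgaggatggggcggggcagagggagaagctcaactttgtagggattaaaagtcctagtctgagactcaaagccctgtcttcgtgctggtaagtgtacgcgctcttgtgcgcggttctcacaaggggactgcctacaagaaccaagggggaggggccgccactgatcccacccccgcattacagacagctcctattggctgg
Cox7a2: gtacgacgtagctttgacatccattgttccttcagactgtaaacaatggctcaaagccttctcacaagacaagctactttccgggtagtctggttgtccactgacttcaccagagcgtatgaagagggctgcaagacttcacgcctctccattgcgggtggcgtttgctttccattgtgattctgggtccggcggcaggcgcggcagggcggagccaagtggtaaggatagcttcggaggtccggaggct
Cox7a1: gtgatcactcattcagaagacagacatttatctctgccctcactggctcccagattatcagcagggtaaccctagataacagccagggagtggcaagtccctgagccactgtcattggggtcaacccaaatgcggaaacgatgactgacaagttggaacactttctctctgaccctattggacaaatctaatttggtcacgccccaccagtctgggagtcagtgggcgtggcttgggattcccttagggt
Sdha: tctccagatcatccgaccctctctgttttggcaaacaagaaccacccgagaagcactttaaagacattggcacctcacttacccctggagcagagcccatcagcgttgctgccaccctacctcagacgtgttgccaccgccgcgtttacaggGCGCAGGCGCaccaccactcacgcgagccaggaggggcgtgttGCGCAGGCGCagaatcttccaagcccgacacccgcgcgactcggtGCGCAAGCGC
The Sdha window held 3 NRF1 matches, the Cox6b1 window 1 ETS match, and the other 3 windows none of these letters, so matches to different motifs did not overlap here. Over the 72 windows of the members, 13 (18.1%) held the NRF1 motif, against 3.74% of all 32851 promoters, and 12 (16.7%) held the ETS motif, against 6.91%. The direct repeat was in 0 of the members' windows and in 0.0335% of all promoters. CpG dinucleotides numbered 14 for Cox6b1 and Cox7a2, 21 for Sdha, 8 for Cox6b2 and 4 for Cox7a1. The median was 14 over the members' windows and 6 over all promoters. The NRF1 and ETS letters themselves contain CpG, and the motif shares were not compared among windows of like CpG number. The windows of both paralogues with large differences thus held fewer CpG than the members' median. A match describes letters and not a bound factor.

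Subunit genes varied less between groups than genes at large. The range of the 9 group means had a median of 0.456 over the 78 members and of 0.740 over all 12244 genes tested. By complex the medians were 0.476 for complex I, 0.463 for complex II, 0.567 for complex III, 0.366 for complex IV and 0.399 for complex V. Among the 6 AM groups alone the median range was 0.251, against 0.309 for all genes. Only 3 members had a range of 1 or more: Cox6b2 with 3.37, Cox7a1 with 2.92 and Ndufb3 with 1.05. A range under 0.5 was seen for 47 members. In none of the 16 comparisons between groups was a difference called for 21 of the 78 members, near the share of all genes, 3049 of 12244. Among these members were Ndufa13, whose range of 0.155 was the smallest, and Cox7a2. Cox6b2 was called most often, in 6 of 16 comparisons.

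**Figure D2:**
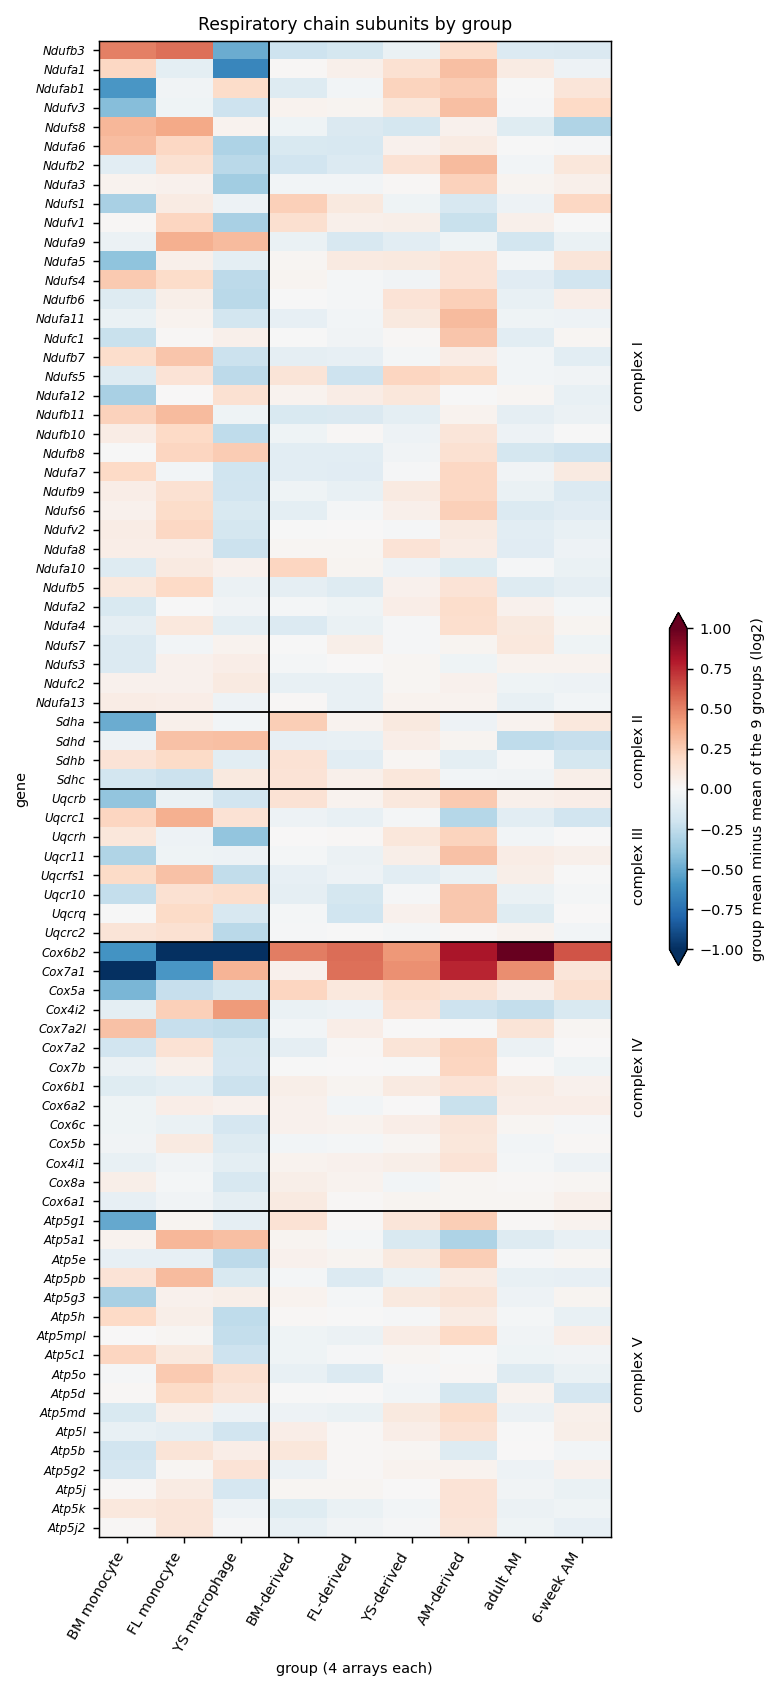
Heat map of the 78 tested members (rows, by complex) in the 9 groups (columns): the mean log2 signal of 4 arrays minus the mean of the 9 group means, with colours held at ±1. Most rows are pale, and Cox6b2, Cox7a1 and Ndufb3 have ranges of 3.37, 2.92 and 1.05.

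All 24 AM arrays were first set against all 12 precursor arrays, with groups weighted equally. Of the 78 members 19 were higher in AMs (24.4%) and 12 were lower (15.4%), where 27.5% and 29.5% of all tested genes were called in these directions, so the members' shares lay below the background in both directions. The median difference over the members was 0.04, and -0.026 over all genes. Complex IV had 7 higher and 1 lower of 14 tested, complex I 5 and 5 of 35, complex II 1 and 1 of 4, complex III 3 and 1 of 8, and complex V 3 and 4 of 17. The split moved with scaling: it was 12 higher and 15 lower after centring arrays on their median, 13 and 12 after centring on their 75th percentile, and 11 and 23 after another quantile normalisation. With the mean of the cytosolic ribosomal protein genes as a covariate, an alternative added after seeing the data, it was 37 and 3. That mean itself was 0.0367 to 0.0542 above the mean of the 9 groups in the precursors and lay between -0.0591 and -0.0032 in the AM groups. The split over the chain as a whole thus depended on scaling, whereas 11 higher and 10 lower calls held under all 3 scalings and without any 1 array. The comparison shares arrays with each comparison of a derived group below.

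Complex IV, cytochrome c oxidase, held the members that differed most. Cox6b2 encodes a paralogue of the ubiquitous subunit Cox6b1 best known from testis. Cox6b2 read 7.72, 8.55, 8.26 and 8.52 in BM monocytes, 6.85, 8.88, 7.51 and 8.03 in FL monocytes and 6.21, 6.83, 6.98 and 6.08 in YS macrophages. The AM arrays read between 8.68 and 10.01, with a median of 9.56. Only the second FL monocyte array, at 8.88, reached the AM range, and only the fourth FL-derived array, at 8.68, came under it. The difference between AMs and precursors was 1.99 ± 0.14 (SE), a 3.98-fold higher signal with a limma adjusted p of 4.3e-14. Cox6b1 was higher by 0.22 ± 0.04 (adjusted p = 2e-05), and its group means ran from 12.40 to 12.52 in precursors and from 12.64 to 12.75 in AMs. Of the genes on either side of Cox6b2, Fam71e2, the closer, was dim in all groups, with means of 3.01 to 3.26, and Kmt5c had group means of 5.93 to 6.06 in precursors and 5.44 to 5.67 in AMs.

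Before transfer YS macrophages had the lowest Cox6b2 signal. It was lower than in BM monocytes by 1.74 ± 0.29 (adjusted p = 6.8e-06) with no overlap of the arrays, and lower than in FL monocytes by 1.29 ± 0.29 (adjusted p = 0.00054) with overlap. After 6 weeks in the lung Cox6b2 read 9.57, 9.38, 9.20 and 9.35 in BM-derived, 9.55, 9.80, 9.67 and 8.68 in FL-derived and 9.65, 9.33, 9.28 and 8.95 in YS-derived AMs. The ranges of the 3 derived groups now overlapped. Cox6b2 rose by 1.11 ± 0.29 from BM monocytes (2.16-fold, adjusted p = 0.0023), by 1.61 ± 0.29 from FL monocytes (3.05-fold, adjusted p = 2.3e-05) and by 2.78 ± 0.29 from YS macrophages (6.85-fold, adjusted p = 6.9e-10). The rise was larger from YS than from BM by 1.66 ± 0.41 (adjusted p of the difference 0.0018). It was larger from YS than from FL by 1.17 ± 0.41 (adjusted p = 0.034), a call lost without any 1 of 7 arrays. Those were FL monocyte 2 and 4, YS macrophage 1 and 4, FL-derived 4 and YS-derived 1 and 2, without which the value was 0.81 to 1.16.

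Cox7a1, the heart and muscle paralogue of Cox7a2, followed another order. It read 6.28, 5.09, 4.97 and 6.71 in BM monocytes, 6.79, 7.84, 7.84 and 6.90 in FL monocytes and 8.02, 8.14, 8.32 and 8.55 in YS macrophages, 3 ranges that did not overlap. The AM arrays read 7.24 to 9.52 with a median of 8.47. BM monocytes were thus the group apart, and the YS macrophage arrays lay inside the AM range. FL monocytes exceeded BM monocytes by 1.58 ± 0.38 (adjusted p = 0.0023) and YS macrophages exceeded them by 2.49 ± 0.38 (adjusted p = 1.6e-06). Between YS and FL the difference of 0.92 missed the threshold (adjusted p = 0.061).

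Over transfer Cox7a1 rose by 2.20 ± 0.38 from BM monocytes (4.59-fold, adjusted p = 1.4e-05), to 7.72, 7.24, 8.25 and 8.63. From FL monocytes it rose by 1.13 ± 0.38 (adjusted p = 0.016), to 8.49, 9.52, 7.34 and 8.55, with overlap. That FL call was lost without FL monocyte 1 (0.95, adjusted p = 0.066), FL monocyte 4 (0.99, adjusted p = 0.058) or FL-derived 2 (0.79, adjusted p = 0.11), and in a fit of those 2 groups alone (adjusted p = 0.053). From YS macrophages the difference was 0.12 (adjusted p = 0.83), and it was smaller than from BM monocytes by 2.08 ± 0.53 (adjusted p = 0.003). Cox7a2 was called in none of the 16 comparisons, with group means of 11.31 to 11.73.

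**Figure D3:**
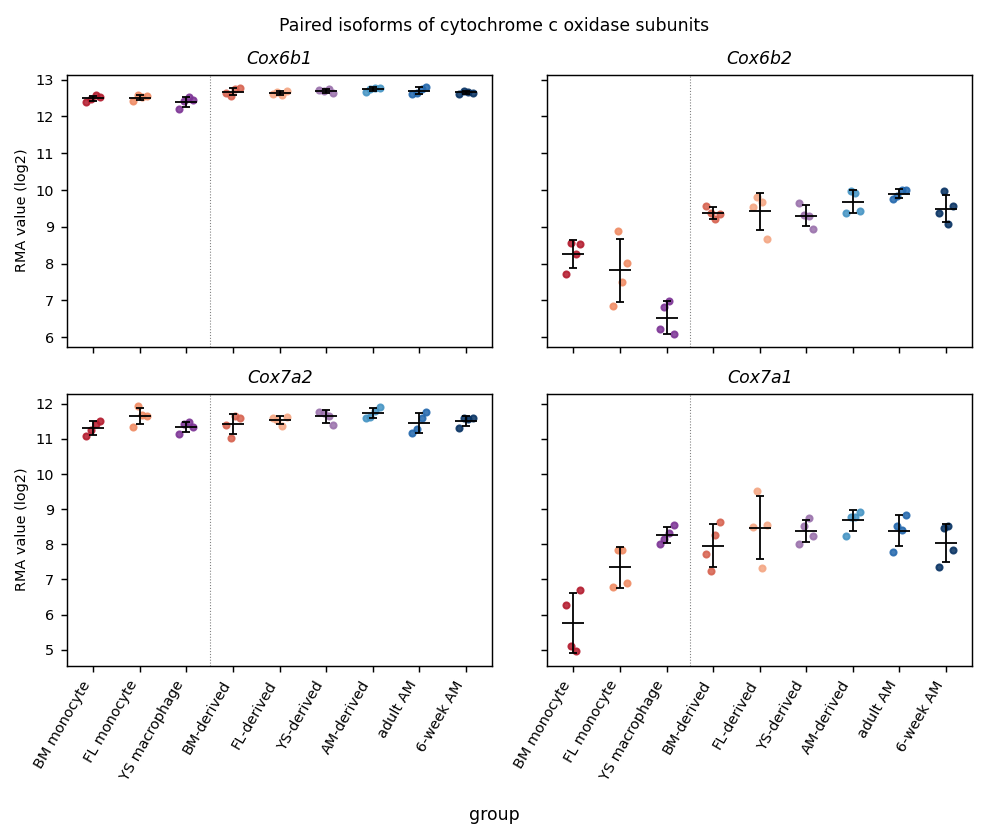
Log2 signal of Cox6b1, Cox6b2, Cox7a2 and Cox7a1 on every array (points) by group, with the mean and SD of 4 arrays (bars). Cox6b2 is lowest in YS macrophages and Cox7a1 is lowest in BM monocytes, while Cox6b1 and Cox7a2 stay within narrow bands.

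Cox5a, a ubiquitous subunit of complex IV, was the one key member for which all AM arrays lay above all precursor arrays. It read 10.59, 10.54, 10.68 and 10.70 in BM monocytes, 10.73, 10.91, 10.89 and 10.88 in FL monocytes and 10.86, 10.88, 10.89 and 11.01 in YS macrophages. AM arrays ran from 11.05 to 11.42 with a median of 11.25. The difference was 0.43 ± 0.04 and had an adjusted p of 1.1e-10. Cox5a rose by 0.67 ± 0.09 from BM monocytes (adjusted p = 7.3e-08), by 0.34 ± 0.09 from FL monocytes (adjusted p = 0.0017) and by 0.34 ± 0.09 from YS macrophages (adjusted p = 0.0014). After median centring the FL value was 0.24 with an adjusted p of 0.052.

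Cox7a2l, which is named like a subunit but is known for joining complexes III and IV into supercomplexes, was highest in BM monocytes. Its arrays read 11.44, 11.13, 11.41 and 11.50 there, 10.58, 10.92, 11.00 and 10.87 in FL monocytes and 10.82, 10.83, 10.81 and 10.87 in YS macrophages. Every BM monocyte array lay above every fetal array, by means of 0.53 ± 0.10 over FL (adjusted p = 0.00023) and 0.54 ± 0.10 over YS (adjusted p = 5.4e-05). Over transfer it fell by 0.32 ± 0.10 from BM monocytes (adjusted p = 0.013) and rose by 0.30 ± 0.10 from FL monocytes (adjusted p = 0.02) and by 0.25 ± 0.10 from YS macrophages (adjusted p = 0.045). The difference between the FL and the BM course was 0.62 ± 0.14 (adjusted p = 0.0042) and held under every scaling and without any 1 array. The fall from BM monocytes was lost without BM monocyte 4 (adjusted p = 0.054) and with the ribosomal covariate (-0.10, adjusted p = 0.44), and the rise from FL monocytes without FL monocyte 1 (adjusted p = 0.12) or FL-derived 4 (adjusted p = 0.06) and under all 3 scalings. The rise from YS macrophages was kept under 2 of the 3 scalings but in only 1 of 8 fits that left out an array of these groups, and was lost with those groups fitted alone. Cox4i2, the paralogue of Cox4i1 known from lung and low oxygen, lay near the table median in all groups, at 4.59 to 5.26, and was higher in YS macrophages than in BM monocytes by 0.52 ± 0.13 (adjusted p = 0.0019).

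In complex I, the NADH dehydrogenase, 5 of 29 tested accessory subunits were higher and 4 lower in AMs than in precursors, and of 6 core subunits 0 were higher and 1 was lower. Both kinds lay below the 27.5% and 29.5% of all genes called higher and lower. Ndufs8, that core subunit, carries iron-sulfur clusters. It was lower in AMs by 0.37 ± 0.06 (adjusted p = 2.8e-06), with precursor arrays at 9.72 to 10.34 and AM arrays at 9.19 to 10.03. Ndufa9, an accessory subunit near the quinone site, was lower by 0.31 ± 0.06 (adjusted p = 0.00011). With the ribosomal covariate the Ndufa9 value was -0.14 (adjusted p = 0.14). Ndufv3 was higher by 0.33 ± 0.07 (adjusted p = 6.8e-05) and Ndufa5 by 0.22 ± 0.05 (adjusted p = 0.00077).

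Ndufb3, an accessory subunit of the membrane arm, was low in YS macrophages and in AMs. It read 8.68, 8.59, 8.71 and 8.87 in BM monocytes, 8.48, 9.19, 8.77 and 8.59 in FL monocytes and 7.53, 7.50, 8.08 and 7.73 in YS macrophages. All YS arrays lay below all monocyte arrays, by means of 1.00 ± 0.20 under BM (adjusted p = 9.2e-05) and 1.05 ± 0.20 under FL (adjusted p = 6.7e-05). In derived AMs Ndufb3 read 8.18, 7.39, 8.29 and 8.15 from BM, 8.21, 8.26, 7.44 and 8.21 from FL and 8.35, 8.02, 8.49 and 7.72 from YS. Both monocyte origins fell without overlap, by 0.71 ± 0.20 (adjusted p = 0.0044) and 0.73 ± 0.20 (adjusted p = 0.0033). With the ribosomal covariate these were -0.40 (adjusted p = 0.16) and -0.49 (adjusted p = 0.052). The YS difference of 0.43 missed the threshold (adjusted p = 0.078). The YS course differed from the BM course by 1.15 ± 0.28 (adjusted p = 0.0018) and from the FL course by 1.16 ± 0.28 (adjusted p = 0.002).

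Ndufa1, a small accessory subunit encoded on the X chromosome, was also low in YS macrophages. It read 11.68, 11.70, 11.88 and 11.75 in BM monocytes, 11.16, 11.52, 11.53 and 11.53 in FL monocytes and 10.76, 10.92, 10.89 and 10.97 in YS macrophages. The 3 ranges did not overlap, and YS lay under BM by 0.86 ± 0.12 (adjusted p = 1.7e-07) and under FL by 0.55 ± 0.12 (adjusted p = 0.00026). From YS macrophages Ndufa1 rose by 0.80 ± 0.12 (adjusted p = 5.9e-07), to 11.82, 11.68, 11.70 and 11.55, whereas the means were 11.55 in BM-derived and 11.59 in FL-derived AMs. Ndufab1, the mitochondrial acyl carrier protein, was lowest in BM monocytes at 9.18, 8.80, 9.19 and 9.46. It was higher in FL monocytes by 0.55 ± 0.17 (adjusted p = 0.02), without BM monocyte 2 by 0.43 (adjusted p = 0.1) and without FL monocyte 2 by 0.50 (adjusted p = 0.066), and higher in YS macrophages by 0.77 ± 0.17 (adjusted p = 0.00042).

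Complex II, succinate dehydrogenase, is also an enzyme of the citric acid cycle, and Sdha is its catalytic flavoprotein. Sdha read 8.74, 8.60, 8.78 and 8.83 in BM monocytes, 9.67, 9.12, 9.12 and 9.23 in FL monocytes and 9.37, 9.13, 9.15 and 9.16 in YS macrophages. BM-derived AMs read 9.37, 9.70, 9.49 and 9.34. BM monocytes lay below each of these other groups with no overlap. Sdha was higher in FL than in BM monocytes by 0.55 ± 0.15 (adjusted p = 0.0096), without FL monocyte 1 by 0.42 (adjusted p = 0.068), and higher in YS macrophages by 0.47 ± 0.15 (adjusted p = 0.014), but by 0.31 (adjusted p = 0.07) after median centring. It rose from BM monocytes by 0.74 ± 0.15 (adjusted p = 0.00022), and was called neither from FL monocytes nor from YS macrophages. The BM and FL courses differed by 0.76 ± 0.22 (adjusted p = 0.022), without FL monocyte 1 by 0.63 (adjusted p = 0.067) and without BM-derived 2 by 0.68 (adjusted p = 0.052). Over all AMs Sdha was higher by 0.23 ± 0.08 (adjusted p = 0.01), but by 0.03 (adjusted p = 0.81) with the ribosomal covariate. Sdhd, a membrane anchor, was lower in AMs by 0.27 ± 0.09 (adjusted p = 0.013), and by contrast 0.033 higher with the ribosomal covariate (adjusted p = 0.82). Sdhb, the iron-sulfur subunit, fell from FL monocytes by 0.30 ± 0.12 (adjusted p = 0.04). Without FL-derived 3 that fall was 0.18 (adjusted p = 0.24), and the call was also lost without FL monocyte 1, 2 or 3. Sdhc, the other anchor, was called in none of the 16 comparisons.

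Complex III, the cytochrome bc1 complex, held opposite changes. Uqcrb, which lies at the ubiquinone site, read 9.95, 10.07, 10.23 and 10.29 in BM monocytes and 10.65, 10.52, 10.77 and 10.77 in BM-derived AMs, with no overlap. It rose by 0.54 ± 0.10 there (adjusted p = 6.2e-05) and was higher in AMs than in precursors by 0.33 ± 0.05 (adjusted p = 1.4e-06). Its 3 probe sets gave 0.329, 0.306 and 0.329 for the latter. Uqcrc1, a core protein, was lower in AMs by 0.36 ± 0.06 (adjusted p = 3.5e-06), with precursor arrays at 8.89 to 9.33 and AM arrays at 8.32 to 9.05. It fell from FL monocytes by 0.43 ± 0.12 (adjusted p = 0.0036), from 9.33, 9.24, 9.20 and 9.06 to 8.70, 8.91, 8.62 and 8.87, without overlap. Uqcrh, the hinge protein, was low in YS macrophages at 11.22, 11.60, 11.77 and 11.65. It rose to 12.18, 12.08, 12.18 and 11.85 in YS-derived AMs, by 0.51 ± 0.13 (adjusted p = 0.0012).

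Complex V, ATP synthase, likewise changed in both directions. Atp5a1, the alpha subunit of the catalytic head, read 10.54, 10.56, 10.78 and 10.62 in BM monocytes, 11.10, 10.94, 10.86 and 10.79 in FL monocytes and 10.93, 10.92, 10.82 and 10.88 in YS macrophages. Both fetal groups lay above BM monocytes without overlap. FL-derived AMs read 10.51, 10.69, 10.49 and 10.61 and YS-derived AMs 10.28, 10.37, 10.46 and 10.63, each below its own precursor. Atp5a1 fell by 0.35 ± 0.10 from FL (adjusted p = 0.0054) and by 0.45 ± 0.10 from YS (adjusted p = 0.00039), and was lower in all AMs by 0.33 ± 0.05 (adjusted p = 8.9e-07). Atp5g1, one of 3 genes for the c-ring subunit, rose from BM monocytes by 0.65 ± 0.15 (adjusted p = 0.00053), from 10.21, 10.37, 10.50 and 10.72 to 11.15, 10.72, 11.43 and 11.12. These ranges adjoined but did not overlap. Atp5pb, the b subunit of the peripheral stalk, fell from FL monocytes by 0.45 ± 0.10 (adjusted p = 0.0005), from 10.81, 10.90, 10.75 and 10.85 to 10.55, 10.41, 10.23 and 10.30. Atp5e, the epsilon subunit of the central stalk, was higher in AMs by 0.21 ± 0.05 (adjusted p = 0.00063).

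**Figure D4:**
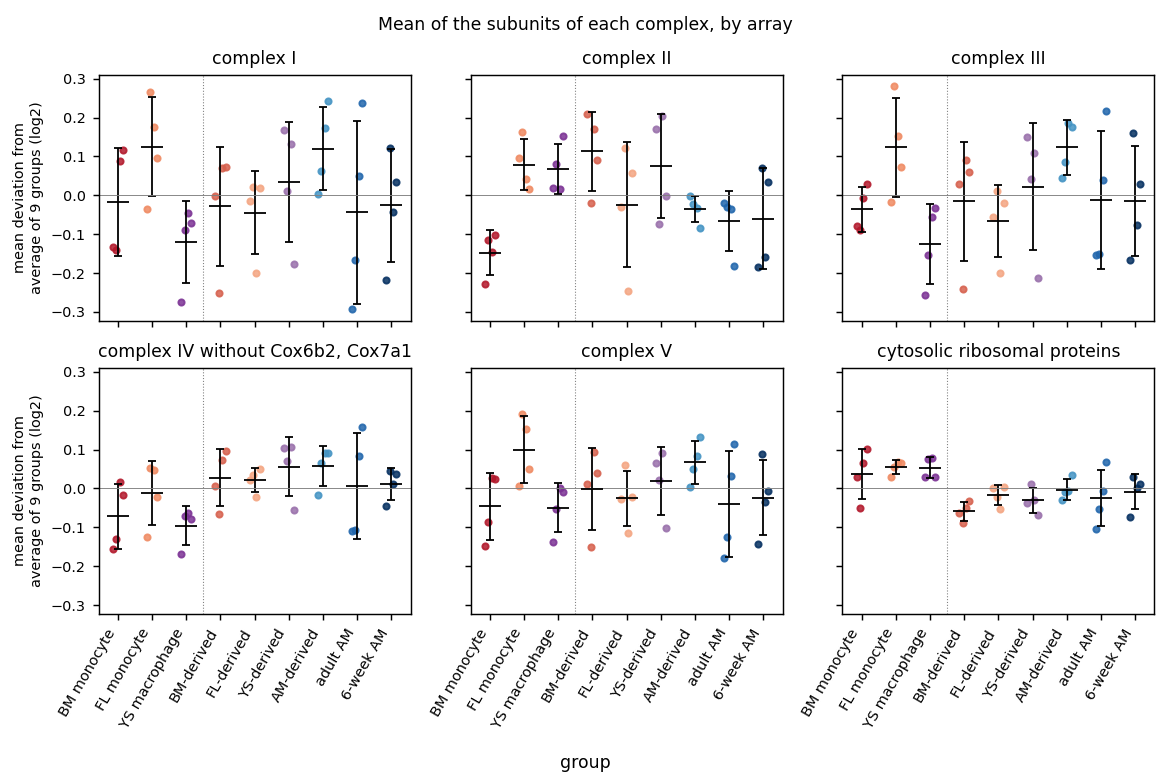
Mean log2 signal of the tested members of each complex on every array (points), minus the mean of the 9 group means, with the mean and SD of 4 arrays by group, beside the cytosolic ribosomal protein genes. Complex IV is drawn without Cox6b2 and Cox7a1; complex I averages 0.125 in FL monocytes and -0.120 in YS macrophages.

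Counted over all members, the precursors differed as follows. In FL against BM monocytes 12 members were higher (15.4%) and 1 lower (1.28%), where 10.6% and 8.97% of all genes were called. The higher ones were 5 of complex I, 4 of complex V and 1 each of the other complexes, and the lower one was Cox7a2l. The count of 13 was 7 without BM monocyte 1, 8 without BM monocyte 2 and 8 without FL monocyte 2, and the split was 7 and 2 after 75th percentile centring. In YS macrophages against BM monocytes 14 were higher (17.9%) and 16 lower (20.5%), against 24.1% and 18.1% of all genes. Ndufa12, an accessory subunit of complex I, was higher by 0.47 ± 0.11 (adjusted p = 0.00072), and Ndufa6, another, was lower by 0.62 ± 0.16 (adjusted p = 0.0021). The split became 4 higher and 31 lower after median centring and 4 and 28 after 75th percentile centring. Those scalings moved the median of all genes by -0.17 and -0.14. Median centring moved it by -0.15 for YS against FL, by -0.15 for the BM course and by -0.11 for the FL course, and 75th percentile centring by -0.13 for the BM course.

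In YS macrophages against FL monocytes 0 members were higher and 22 lower (28.2%), against 18.6% and 14.5% of all genes. The 22 lower members were 13 of complex I, 4 of complex III, 1 of complex IV and 4 of complex V. Under the scalings the count of lower members was 37, 24 and 20, with 0 higher in each, and 10 of the 22 were called under every scaling and without any 1 array. Without FL monocyte 2 it was 13 and without YS macrophage 1 it was 10. Besides Ndufb3, Ndufa1 and Cox6b2, the lowest were Ndufv1, which binds NADH in complex I, at -0.54 ± 0.13 (adjusted p = 0.00092), and Uqcrfs1, the Rieske iron-sulfur protein of complex III, at -0.54 ± 0.12 (adjusted p = 0.0005). In these 3 comparisons each precursor group is used in 2.

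Each derived group was then set against its own precursor. From BM monocytes 14 members rose (17.9%) and 6 fell (7.69%), against 20.3% and 16.1% of all genes. Ndufs1, the largest core subunit of complex I, rose by 0.56 ± 0.15 (adjusted p = 0.0033), and Ndufb11, an accessory subunit, fell by 0.39 ± 0.12 (adjusted p = 0.0094). The split was 7 and 13, 8 and 11, and 12 and 14 under the 3 scalings and 28 and 0 with the ribosomal covariate, with 7 rises and 3 falls called under every scaling and leave-out. From FL monocytes 4 rose (5.13%) and 12 fell (15.4%), against 20.4% and 18% of all genes, and the 4 rises, Cox6b2, Cox7a1, Cox5a and Cox7a2l, were all named for complex IV. The split was 2 and 18 after median centring, 3 and 17 after another quantile normalisation and 13 and 6 with the ribosomal covariate. From YS macrophages 18 rose (23.1%) and 2 fell (2.56%), against 19.6% and 23.2% of all genes. The falls were Atp5a1 and Ndufa9, the latter by 0.42 ± 0.13 (adjusted p = 0.0078). After another quantile normalisation 9 rose and 9 fell, and the count of 20 was 12 without YS macrophage 1 and 13 without YS-derived 1, 2 or 3. These YS arrays are also those of the precursor comparisons, so a low precursor value enters both.

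**Figure D5:**
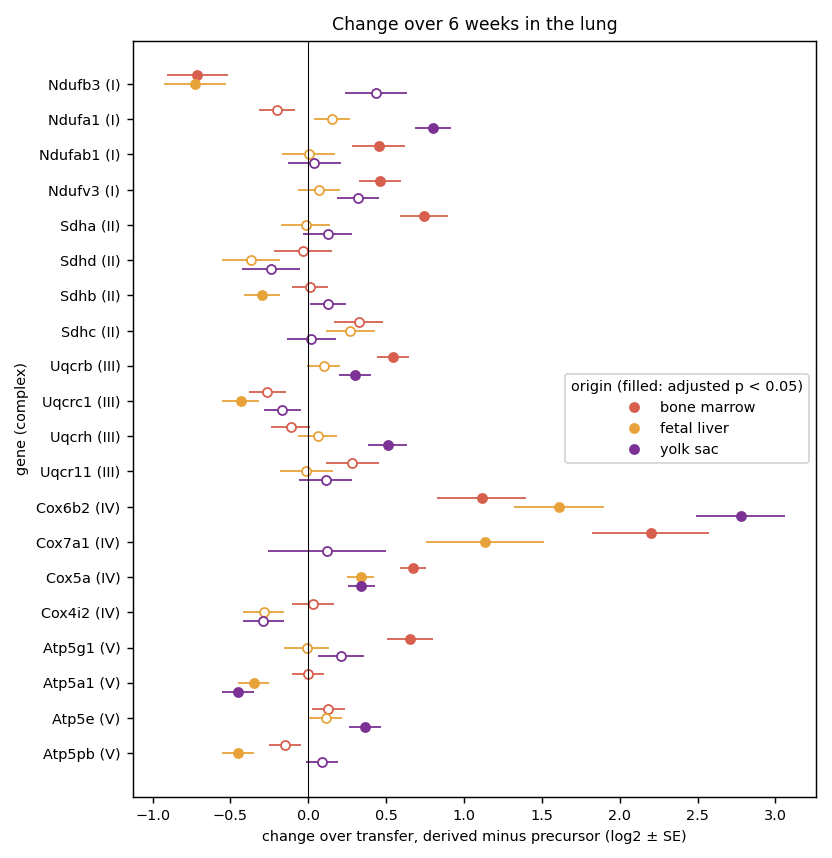
Difference between derived AMs and their own precursors (log2, ± SE) for 20 members and 3 origins; filled points have an adjusted p under 0.05. Cox6b2 rises from all origins, by 1.11, 1.61 and 2.78, and Cox7a1 rises by 2.20 from BM monocytes and differs by 0.12 from YS macrophages.

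The differences between courses were tested as interactions. For FL minus BM 1 member was higher and 4 lower, with 4.26% and 5.68% of all genes called, so the members were at or below the background. The higher one was Cox7a2l, and the split was 1 and 2 after median centring and 1 and 1 after 75th percentile centring. For YS minus BM 10 were higher and 7 lower, against 12.4% and 18.2%, near and below the background, and the split was 23 and 1 after median centring and 18 and 1 after 75th percentile centring. For YS minus FL 12 were higher and 0 lower, against 9.48% and 13.5%: 7 of complex I, 3 of complex III and 1 each of complexes IV and V. The latter count was 27 after median centring, and 7 without FL monocyte 2.

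Among AMs no member was called. AMs derived from transferred adult AMs did not pass the threshold against untransferred adult AMs for any member, where 0.702% of all genes were called. The members' median difference was 0.15, against -0.007 over all genes, 60 of 78 lay above 0, and 12 had an unadjusted limma p under 0.05. Of these Uqcrq, a small subunit of complex III, had the lowest adjusted p, 0.23 at 0.38. Most members varied together from array to array, so these counts are not of separate observations. The share of all genes at the unadjusted threshold is not given, here or in the comparisons below. The percentages of all genes called are at the adjusted threshold, so they are no background for the unadjusted counts of members. Against AMs of 6-week mice 0 members were called in BM-, FL-, YS- and AM-derived cells, with 1.31%, 1.05%, 1.72% and 1.07% of all genes called and 3, 0, 1 and 13 members at an unadjusted p under 0.05. Adult and 6-week AMs differed in 0 members at either threshold, with 0.0163% of genes called. Between derived groups 0 members were called in FL against BM, YS against BM and YS against FL, with 2, 2 and 1 at an unadjusted p under 0.05 and 0.417%, 0.833% and 0.27% of genes called.

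The intervals show what these comparisons could have missed. For Cox6b2 the difference from 6-week AMs was -0.12 in BM-derived AMs (95% interval -0.71 to 0.47), -0.07 in FL-derived (-0.66 to 0.52) and -0.19 in YS-derived (-0.78 to 0.40). For Cox7a1 it was -0.08 (-0.86 to 0.69), 0.43 (-0.34 to 1.21) and 0.33 (-0.44 to 1.11). These intervals reach 0.78 in size for Cox6b2 and 1.21 for Cox7a1, so differences up to these sizes remain possible. For Cox5a the intervals were narrower, -0.13 to 0.22, -0.23 to 0.12 and -0.17 to 0.18.

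Companion genes of the mitochondrion were counted in the same fits, where 27.5% of all genes were higher in AMs and 29.5% lower. The share higher in AMs was exceeded by fatty acid oxidation genes, by electron carriers with ubiquinone genes and by the few antioxidant enzymes. The share lower in AMs was exceeded by mitochondrial ribosomal genes and by regulators of biogenesis. Citric acid cycle genes exceeded both shares, whereas assembly factors and the carriers and import factors lay near or below them. In AMs against precursors 11 of 15 tested genes of fatty acid oxidation were higher and 0 lower, with a median of 0.70, including Cpt1a, the entry step for long-chain fatty acids, at 1.77 and Cpt2 at 1.13. Of 77 mitochondrial ribosomal protein genes 4 were higher and 35 lower, with a median of -0.18. Of 19 citric acid cycle genes 7 were higher and 8 lower, among them Mpc1, the pyruvate carrier, at 1.18 and Idh2 at -1.08. Assembly factors of the complexes counted 7 higher and 12 lower of 42, and electron carriers with ubiquinone genes 8 and 2 of 17, led by Gpd2 at 0.99. Regulators of biogenesis counted 3 and 9 of 18, with Ppargc1b, a coactivator, at 0.81 and Nrf1 at -0.71. Carriers and import factors counted 8 and 7 of 27, and antioxidant enzymes 3 and 1 of 8. The median over the subunits themselves was 0.04.

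By origin, 9 of the 77 mitochondrial ribosomal genes rose and 12 fell from BM monocytes, where 20.3% and 16.1% of all genes did. From FL monocytes 1 rose and 34 fell (all genes 20.4% and 18%), and from YS macrophages 4 rose and 19 fell (all genes 19.6% and 23.2%). The FL falls stood above the share of all genes, and the BM and YS falls near it. The interaction called 0 higher and 9 lower of the 77 for FL minus BM (all genes 4.26% and 5.68%). It called 3 and 14 for YS minus BM (all genes 12.4% and 18.2%) and 8 and 1 for YS minus FL (all genes 9.48% and 13.5%). Only the 9 lower for FL minus BM stood above the share of all genes, and the other counts lay near or below it. Of 15 fatty acid oxidation genes 8 rose and 1 fell from BM monocytes, 11 and 0 from FL monocytes and 11 and 1 from YS macrophages. The interactions called 0 and 1, 1 and 3, and 1 and 1 of them, near or below the shares of all genes. Before transfer 26 of the 77 mitochondrial ribosomal genes were higher in FL than in BM monocytes and 0 lower, with a median of 0.38, against 10.6% and 8.97% of all genes. The mitochondrial chaperones Hspa9 and Hspd1 were higher in YS macrophages than in BM monocytes by 1.92 and 1.76.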

How the data were processed

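Total RNA of sorted cells was amplified and hybridised to Affymetrix Mouse Gene 1.0 ST arrays. The authors deposited log2 values of 35556 probe sets on 36 arrays, made with RMA per the submitters' processing notes (background correction, quantile normalisation and summary; version not stated). Quantile normalisation gives all arrays 1 distribution, so a shift common to most genes cannot be seen. The probe annotation named 21789 probe sets with 1 symbol, 1621 with several and 12146 with none, and 21698 symbols were updated through RefSeq names. A genome build for the probe design was not given in the sources used here.

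Of 19938 genes, 12244 lay above the table median on at least 4 arrays and were fitted with limma 3.58.1 in R 4.3.3 (9 group means, 27 residual degrees of freedom). Benjamini-Hochberg adjustment ran over all tested genes within a comparison, and calls needed an adjusted p under 0.05. Array medians ran from 4.54 to 4.73. The 95% intervals use these residual degrees of freedom alone. No read depth applies: the number of arrays limits precision. The fits were tested on simulated data. Genes were named by range of group means, up to 4 per complex, by how often they were called, and by the 5 largest rises and falls per comparison, with the leading genes of companion lists. The members and lists were chosen with earlier results of these data known. Ndufs8, Cox7a2l and other members outside the largest ranges were described after their values were seen. Sequences came from RefSeq promoters. Alternatives were scaling, the filter, probe set choice, array weights, the fitted groups, a replicate block, leaving out each array, and a ribosomal covariate.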

Additional observations from a re-analysis of the deposited data

Results flagged for a closer look

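In 12 of 225 groups of 4 arrays checked, 1 array stood far from the other 3, where chance gives about 1 in 20. For the mean of complex I this was FL-derived 3, at -0.201, for complex II adult AM 4, at -0.181, and for complex IV AM-derived 1, at 0.046, each relative to the mean over the 9 groups. Ndufb3 was low on BM-derived 2, at 7.39, and on FL-derived 3, at 7.44. Ndufa1 was low on FL monocyte 1, at 11.16, Ndufab1 on BM-derived 2, at 9.18, and Atp5a1 on BM-derived 4, at 10.45. Sdha was high on YS macrophage 1, at 9.37, on FL-derived 2, at 9.43, and on YS-derived 4, at 9.58, and Cox4i2 on YS macrophage 4, at 5.35.

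The course over transfer differed between origins, by the interaction term in limma, in 15 instances among the key members. FL minus BM gave -0.76 for Sdha, -0.45 for Uqcrb and -0.67 for Atp5g1. YS minus BM gave 1.15 for Ndufb3, 1.00 for Ndufa1, 0.62 for Uqcrh and 1.66 for Cox6b2, and -0.62 for Sdha, -2.08 for Cox7a1, -0.33 for Cox5a and -0.45 for Atp5a1. YS minus FL gave 1.16 for Ndufb3, 0.65 for Ndufa1, 1.17 for Cox6b2 and 0.54 for Atp5pb. All 15 had adjusted p values between 1.05e-05 and 0.0465, and these comparisons share arrays. Not all held under the alternatives. For FL minus BM, Uqcrb was kept under 0 of 3 scalings and in 6 of 16 fits without 1 array, Atp5g1 under 1 and in 6, and Sdha under 2 and in 14. For YS minus BM, Sdha was kept under 0 scalings and in 10 of 16 fits, Cox5a under 1 and in 9, and Atp5a1 under 1 and in 16. Cox6b2 for YS minus FL was kept under 3 scalings and in 9 of 16 fits. The other 8 were kept under all 3 scalings and in all 16 fits.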

How the results depend on the processing

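Of 108 called values of named members, 60 stayed called under every setting, 47 lost the call under at least one, and 1 changed sign: Sdhd in AMs against precursors, at 0.033 with the cytosolic ribosomal covariate, which was chosen after seeing the data. Counts of members called moved by over 1.5 times as follows, and the cause was not tested. With only the compared groups fitted they were 6 for FL against BM monocytes, 14 for YS against FL, 13 for the BM course and 2 for FL minus BM, where the spread rests on fewer arrays. Median centring gave 37 for YS against FL, 3 for FL minus BM and 27 for YS minus FL. For FL minus BM, 75th percentile centring gave 2 and another quantile normalisation 3. The ribosomal covariate gave 48 for the YS course, 1 for BM-derived against 6-week AMs, 13 for FL minus BM and 27 for YS minus FL.

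Without 1 array at a time the counts ran from 7 to 13 for FL against BM, 23 to 30 for YS against BM, 10 to 24 for YS against FL, 27 to 32 for AMs against precursors, 17 to 21, 12 to 17 and 12 to 25 for the BM, FL and YS courses, 0 to 0 in each of 9 comparisons among AMs, and 2 to 6, 11 to 20 and 7 to 18 for the interactions FL minus BM, YS minus BM and YS minus FL. YS minus BM fell to 11 without YS-derived 2. FL minus BM gave 3 without BM monocyte 1 or 2, FL monocyte 2, BM-derived 4 or FL-derived 4, and 2 without FL monocyte 1, BM-derived 1 or 3 or FL-derived 3.

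Pooled over all pairs of groups, no pairing by replicate number was seen. Deviations of arrays with the same number correlated at a mean of 0.0011 (144 pairs, -0.377 to 0.419), against -3e-04 for other pairs (432). Pairing of a precursor group with its own derived group was not tested apart from the rest. With a replicate block the counts were 14, 32 and 22 for the precursor comparisons, 32 for AMs against precursors, 20, 16 and 22 for the courses, 0 among AMs and 6, 16 and 14 for the interactions. Signal over background limits dim members such as Cox4i2.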
